A study of Homo sapiens with 3 samples.

Results

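The genes described are 9 that encode cadherins, claudins and other cell-cell junction proteins of epithelia (CDH1, CDH2, CLDN1, CLDN3, CLDN4, OCLN, TJP1, F11R and EPCAM), chosen by symbol in the array's probe annotation from 17559 genes. The annotation lists 10 probes under these symbols, and an 11th probe stands under TACSTD1, an older symbol of EPCAM. The cells were HepG2, an established human liver cancer line. They received 10 nM siRNA for 72 h, directed at villin (gene VIL1), which bundles actin in microvilli, at PTK7, a catalytically inactive receptor kinase, or at no target (negative control). Control cells had thus been transfected with the same lipid reagent. The array of cells given villin siRNA is called the villin-knockdown array. The labels name 2 villin siRNAs without saying which was used for the array, and the array labelled PTK7 siRNA rests on a single siRNA. Each group had 1 array, read in a single colour, so no difference has a replicate check, no test was run, and every value describes these 3 arrays.

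Adherens junctions join neighbouring epithelial cells through cadherins, whose cytoplasmic tails bind catenins and through them actin. Tight junctions lie on the apical side of the adherens junctions, where claudin strands set which ions and molecules pass between cells, and scaffold proteins such as ZO-1 hold the strands to actin. In liver they seal the bile canaliculus, the apical lumen between hepatocytes.

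In the quantile-normalised values, CLDN4 and CDH1 differed most of the 9 on the villin-knockdown array, 1.84-fold and 1.72-fold higher than on the control array, while in the deposited values CDH2 led, at 2.71-fold. EPCAM differed most on the array labelled PTK7 siRNA, 1.63-fold higher, but CDH2 led there in the deposited values (2.29-fold). After correction for the place of the spot on the slide, CLDN1 led there by the brightest probe of each gene (1.35-fold). The other EPCAM probe, listed under TACSTD1, then gave 1.51-fold. TJP1 was the lowest of the 9 in both comparisons in the quantile-normalised values, with log2 differences of -0.11 on the villin-knockdown array and of -0.25 on the array labelled PTK7 siRNA. All 9 genes were above background on all 3 arrays. Intensities below are the authors' deposited values, in which every array has a median of 25, and log2 differences come from normalised scanner intensities, where an added offset makes the differences of dim probes smaller than in the deposited values. In brackets after a difference or rank, villin and PTK7 name the array by the siRNA of its label, always set against the control array unless stated. Levels are compared between arrays only, since the brightness of different probes cannot be compared.

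The targeted transcripts were examined first. The deposited intensity of VIL1 was 129 with villin siRNA and 1084 on the array labelled PTK7 siRNA, against 924 on the control array. PTK7 had 25 with villin siRNA and 12 on the array so labelled, against 14 on the control array. This is a normalised log2 difference of -0.05 between the array labelled PTK7 siRNA and the control array, so its single dim probe does not show the knockdown named in the label. Under 1 alternative, position scaling with plain subtraction of the blank mean, the difference was -0.67. Every direction for that array is that of the array so labelled. Spots are printed in 24 blocks, whose median normalised log2 differences lay between -0.11 and 0.11 for the villin-knockdown array against the control array. The array labelled PTK7 siRNA had block medians between -0.12 and 0.15. A positive control probe printed at 24 places gave log2 differences with an SD of 0.25 across the slide for the villin-knockdown array and 0.30 for the array labelled PTK7 siRNA, and a second one 0.15 (villin) and 0.18 (PTK7). These SDs were taken without the offset and cover spot and position error of very bright spots, not the spread between cultures. The differences of the members against the control array are therefore also given after position scaling, in which the signal of a probe is divided by the deviation of its neighbouring spots.

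**Figure D1:**
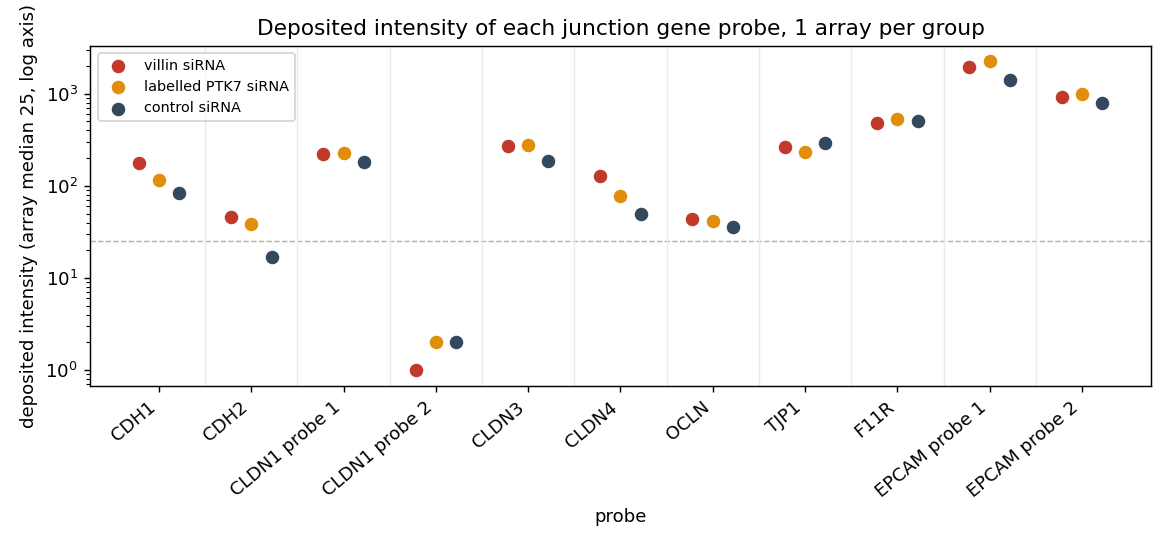
Deposited intensity (log axis, whole numbers; dashed line, the array median of 25) of the 11 probes on the villin-knockdown array, the array labelled PTK7 siRNA and the control array, 1 point per array. CDH1, CDH2 and CLDN4 are highest on the villin-knockdown array and lowest on the control array, while F11R and TJP1 lie close together on all 3 arrays.

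CDH1 encodes E-cadherin, the cadherin of epithelial adherens junctions. It had deposited intensities of 178 on the villin-knockdown array, with 115 on the array labelled PTK7 siRNA, against 84 on the control array. The villin-knockdown array was thus the highest and the control array the lowest. The normalised log2 difference was 0.78 for the villin-knockdown array, rank 104 from the top among 15907 genes detected on both arrays, and 0.31 for the array labelled PTK7 siRNA. After position scaling the values were 0.52, or 1.44-fold (villin), and 0.09 (PTK7). Plain subtraction without position scaling, which like the SDs of the positive control probes has no offset, gave 1.03 (villin) and 0.42 (PTK7). These values exceed both SDs, which do not cover the spread between cultures. Position scaling with plain subtraction gave 0.68 (villin), above both SDs, and 0.13 (PTK7), below both.

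CDH2 encodes N-cadherin, a cadherin of mesenchymal and neural cells that hepatocytes also carry. It had deposited intensities of 46 on the villin-knockdown array, with 39 on the array labelled PTK7 siRNA, against 17 on the control array. Both siRNA arrays were therefore higher, by 2.71 times (villin) and 2.29 times (PTK7) in the deposited values. In the normalised values the log2 differences were 0.57 (villin), just short of 1.5-fold, and 0.48 (PTK7). Position scaling lowered them to 0.29 (villin) and 0.17 (PTK7). The spots of CDH1 and CDH2 lie in column 25, row 1 of blocks 22 and 24, where the surrounding spots were brighter on the villin-knockdown array than on the control array by 0.37 (CDH1) and 0.69 (CDH2) on the log2 scale before the offset, relative to the median spot. For the array labelled PTK7 siRNA the surroundings were brighter by 0.34 (CDH1) and 0.80 (CDH2). The E-cadherin and N-cadherin transcripts were both above 0 in both comparisons, under both settings.

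Among the claudins, CLDN4 stood highest. Claudin-4 is a tight junction strand protein of many simple epithelia and, like claudin-3, a receptor for an enterotoxin of Clostridium perfringens. CLDN4 had deposited intensities of 127 on the villin-knockdown array, with 78 on the array labelled PTK7 siRNA, against 50 on the control array. The order of the arrays was the same as for CDH1. The log2 differences were 0.88 (villin), rank 75 from the top among the 15907 genes, and 0.40 (PTK7). Its surroundings on the slide, in block 14, were brighter by only 0.02 (villin) and 0.09 (PTK7) than on the control array, and position scaling left the differences at 0.87 (villin) and 0.36 (PTK7). CLDN4 was the single member still beyond 1.5-fold with villin siRNA after position scaling of the offset values. Position scaling with plain subtraction, which has no offset, gave 2.44-fold for CLDN4, 1.60-fold for CDH1 and 1.56-fold for CDH2. With the scanner's background column in place of the blank mean the difference of CLDN4 turned to -0.14.

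CLDN3 had 272 on the villin-knockdown array, with 279 on the array labelled PTK7 siRNA, against 184 on the control array. Both siRNA arrays lay above the control array and close to each other. The log2 differences were 0.45 (villin) and 0.50 (PTK7), and 0.14 (villin) and 0.11 (PTK7) after position scaling. Its spot lies in block 22, like that of CDH1, with surroundings brighter by 0.39 (villin) and 0.50 (PTK7). With the background column the differences turned to -0.05 (villin) and -0.83 (PTK7).

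CLDN1, the barrier-forming claudin of liver and skin, has 2 probes. The brighter had 222 on the villin-knockdown array, with 228 on the array labelled PTK7 siRNA, against 180 on the control array, with log2 differences of 0.21 (villin) and 0.29 (PTK7). Its surroundings in block 2 were dimmer on the siRNA arrays, with values of -0.16 (villin) and -0.15 (PTK7), and position scaling raised the differences to 0.37 (villin) and 0.43 (PTK7), while with the background column they turned to -0.16 (villin) and -0.19 (PTK7). The other probe was barely above background, at 1 on the villin-knockdown array, with 2 on the array labelled PTK7 siRNA, against 2 on the control array. Its log2 differences were -0.04 (villin) and 0.01 (PTK7).

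CLDN3 and CLDN4 are neighbours on chromosome 7, with 0 protein-coding genes between them in RefSeq (GRCh38.p14). RefSeq promoter windows run from 250 bases before to 50 after a gene's start. They were at hand for 6 of the 9 genes, not for CDH1, F11R and EPCAM. Those of CLDN4 and CLDN3 and 1 of the 2 of CDH2 are shown because these genes were higher on both siRNA arrays and differed in how far position scaling lowered these values. Capitals mark CACCTG, the E-box bound by the SNAI and ZEB repressors of junction genes, and GGGCGG, the GC box bound by SP factors, on either strand (CAGGTG and CCGCCC). The windows are chr7:73830746-73831045 (plus strand) for CLDN4, chr7:73770221-73770520 (minus strand) for CLDN3 and chr18:28177081-28177380 (minus strand) for CDH2, each written along its own strand.
CLDN4: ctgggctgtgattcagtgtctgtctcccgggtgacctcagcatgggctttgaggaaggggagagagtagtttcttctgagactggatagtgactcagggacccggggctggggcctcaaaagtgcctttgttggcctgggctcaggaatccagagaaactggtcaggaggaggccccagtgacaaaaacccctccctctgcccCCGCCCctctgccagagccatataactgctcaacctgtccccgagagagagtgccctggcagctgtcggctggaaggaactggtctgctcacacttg
CLDN3: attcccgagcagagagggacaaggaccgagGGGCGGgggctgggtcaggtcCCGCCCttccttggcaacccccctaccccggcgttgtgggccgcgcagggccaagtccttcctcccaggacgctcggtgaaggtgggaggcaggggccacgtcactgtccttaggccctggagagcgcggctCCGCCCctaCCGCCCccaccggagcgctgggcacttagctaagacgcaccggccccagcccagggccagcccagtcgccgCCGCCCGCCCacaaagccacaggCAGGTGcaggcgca
CDH2: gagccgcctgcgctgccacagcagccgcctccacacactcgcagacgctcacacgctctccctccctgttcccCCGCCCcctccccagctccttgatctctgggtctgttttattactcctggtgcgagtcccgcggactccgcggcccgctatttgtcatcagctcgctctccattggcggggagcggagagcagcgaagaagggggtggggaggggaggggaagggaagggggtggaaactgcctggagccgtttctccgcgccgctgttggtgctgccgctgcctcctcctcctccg
CLDN3 held 1 E-box, 37 bases after the start, and 6 GC boxes, of which the last 2 share bases. CLDN4 and the CDH2 window shown held no E-box of these letters and 1 GC box each, and the other CDH2 window held 0 of either. Of 35116 promoter windows of 300 bases, 20.6% held CACCTG and 45.0% GGGCGG on either strand. OCLN had 1 and 2 E-boxes in its 2 windows, TJP1 had 1 in the first of its 4 windows and none in the others, and CLDN1 had none. GC boxes numbered 1 and 0 in the windows of OCLN, 3, 3, 1 and 0 in those of TJP1, and 2 in that of CLDN1. These matches describe the sequence only.

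OCLN encodes occludin, a membrane protein of tight junctions that spans the membrane several times. It had deposited intensities of 44 on the villin-knockdown array, with 42 on the array labelled PTK7 siRNA, against 36 on the control array. The log2 differences were 0.11 in both comparisons, and 0.11 (villin) and 0.10 (PTK7) after position scaling. Plain subtraction without position scaling, which like the SDs of the positive control probes has no offset, gave 0.22 (villin) and 0.21 (PTK7). These lie between the smaller and the larger SD.

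TJP1 encodes ZO-1, the scaffold that binds claudins and occludin. It had 267 on the villin-knockdown array, with 235 on the array labelled PTK7 siRNA, against 290 on the control array. TJP1 was the member with its highest value on the control array. The log2 differences were -0.11 (villin) and -0.25 (PTK7), and -0.13 in both comparisons after position scaling. On the villin-knockdown array the sign turned with median scaling, to 0.04, and in both comparisons with the background column, to 0.05 (villin) and 0.32 (PTK7).

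F11R encodes JAM-A, an immunoglobulin-type adhesion molecule of tight junctions. It had 483 on the villin-knockdown array, with 534 on the array labelled PTK7 siRNA, against 501 on the control array, so the control array lay between the others. The log2 differences were -0.05 (villin) and 0.09 (PTK7). After position scaling they were 0.23 (villin) and 0.31 (PTK7), and the sign on the villin-knockdown array also turned with median scaling, to 0.12, and with the background column, to 0.98.

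EPCAM encodes a homophilic adhesion protein of epithelia that in liver marks bile duct and progenitor cells and is lost from mature hepatocytes. The brighter of its 2 probes had 1969 on the villin-knockdown array, with 2240 on the array labelled PTK7 siRNA, against 1414 on the control array. The log2 differences were 0.53 (villin) and 0.71 (PTK7), and the value of 0.71 ranked 62 from the top among 15775 genes. The probe listed under TACSTD1 had 912 with villin siRNA and 983 on the array labelled PTK7 siRNA, against 785 on the control array, with log2 differences of 0.26 (villin) and 0.35 (PTK7). Both probes were highest on the array labelled PTK7 siRNA and lowest on the control array. The surroundings of the brighter probe were brighter than on the control array, by 0.29 (villin) and 0.46 (PTK7), and those of the other probe dimmer, with values of -0.18 (villin) and -0.22 (PTK7). Position scaling turned the order of the probes. The brighter probe, in row 1 of block 17, then gave 0.28 in both comparisons, and the probe listed under TACSTD1, in block 6, gave 0.43 (villin) and 0.59 (PTK7), which is 1.51-fold for the array labelled PTK7 siRNA. Both probes stayed above 0 in both comparisons under both settings. With the background column the brighter probe turned to -0.23 on the array labelled PTK7 siRNA and lay at 0.19 on the villin-knockdown array, while the other probe lay at 2.22 (villin) and 1.72 (PTK7).

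**Figure D2:**
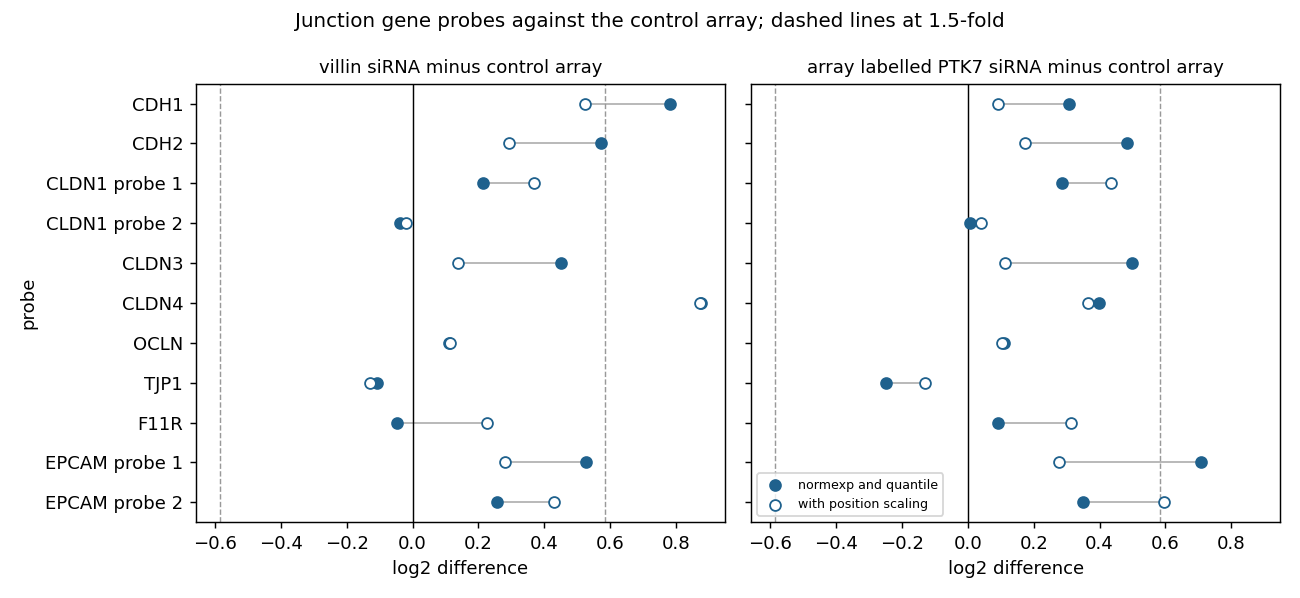
Normalised log2 difference of each probe against the control array, for the villin-knockdown array (left) and the array labelled PTK7 siRNA (right). Filled points are normexp and quantile values, open points the same after position scaling, and dashed lines mark 1.5-fold. CLDN4 keeps its place at 0.88 and 0.87 on the left, while CDH1, CDH2, CLDN3 and the brighter EPCAM probe move towards 0 and F11R and CLDN1 away from it.

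Counted together, 7 of the 9 genes were above 0 with villin siRNA. For the array labelled PTK7 siRNA the count was 8 of 9, and the comparisons share the control array. Their range was -0.11 to 0.88 with villin siRNA and -0.25 to 0.71 on the array labelled PTK7 siRNA. At least 1.5-fold higher on the villin-knockdown array were 2 of the 9, CDH1 and CLDN4, against 1.59% of all 15907 genes detected on both arrays, and 0 were at least 1.5-fold lower, against 0.522%. On the array labelled PTK7 siRNA 1 of the 9, EPCAM, was at least 1.5-fold higher, against 0.811% of 15775 genes, and 0 were lower, against 0.216%. The median of the 9 was 0.45 (villin) and 0.31 (PTK7), beside medians of -0.01 over all genes detected in each comparison. CDH2, at 1.49-fold on the villin-knockdown array, fell just short of the 1.5-fold limit. In these values none of the 9 was at least 2-fold higher, against 0.289% of all genes on the villin-knockdown array, 0.108% on the array labelled PTK7 siRNA and 0.0502% between the siRNA arrays.

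In the deposited values, which carry no offset, 3 of the 9 were at least 1.5-fold higher on the villin-knockdown array (CDH1, CDH2 and CLDN4) against 8.86% of all genes. All 3 were also at least 2-fold higher, against 3.73%. On the array labelled PTK7 siRNA 4 were at least 1.5-fold higher (CDH2, CLDN3, CLDN4 and EPCAM) against 6.07%, and 1, CDH2, at least 2-fold, against 2.31%. With plain subtraction of the blank mean, the same 3 were at least 1.5-fold higher on the villin-knockdown array, against 7.56%, and CDH2, CLDN4 and EPCAM on the array labelled PTK7 siRNA, against 7.07%. At 2-fold, plain subtraction gave the same counts as the deposited values, 3 with villin siRNA, against 2.18%, and 1 on the array labelled PTK7 siRNA, against 1.67%. After position scaling 1 was at least 1.5-fold higher on the villin-knockdown array (CLDN4) against 0.905%, and 0 on the array labelled PTK7 siRNA, against 0.108%. The position-scaled medians were 0.28 (villin) and 0.17 (PTK7).

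**Figure D3:**
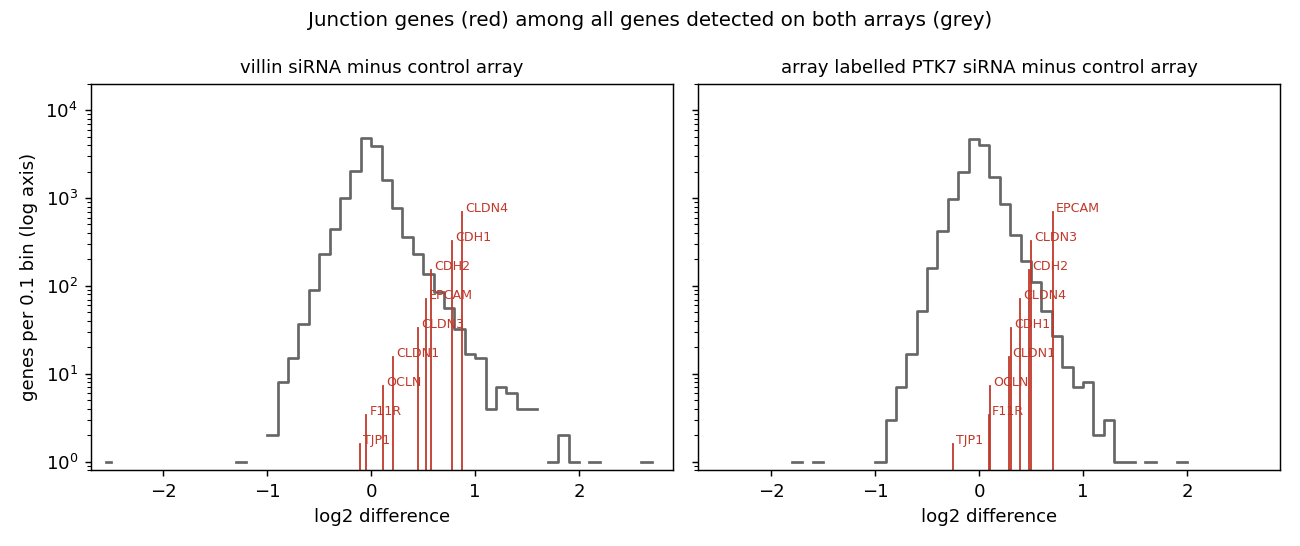
Number of genes detected on both arrays per bin of normalised log2 difference (log axis, grey) for the villin-knockdown array (left) and the array labelled PTK7 siRNA (right) against the control array, with the 9 junction genes as red lines, whose heights serve only to separate the names. CLDN4 and CDH1 lie at 0.88 and 0.78 on the left and EPCAM at 0.71 on the right, in the upper flank of each distribution, and TJP1 lies below 0 in both.

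The 4 genes with the largest differences on the villin-knockdown array, CLDN4, CDH1, CDH2 and EPCAM, all have their brightest probe in row 1 of a block. Of the probes in row 1, 3.67% were at least 1.5-fold higher on the villin-knockdown array, against 1.19% in rows 2 to 10. For the array labelled PTK7 siRNA these shares were 1.88% in row 1 and 0.665% in rows 2 to 10. At least 1.5-fold lower were 0.795% in row 1 against 0.375% in rows 2 to 10 (villin), and 0.357% against 0.218% (PTK7). After position scaling the shares at least 1.5-fold higher were 2.03% against 0.648% (villin) and 0.179% against 0.0987% (PTK7). Probes in row 1 therefore lay beyond 1.5-fold more often in both directions, and position scaling did not remove the excess of higher ones. The part of the row in the values of these genes was not tested. Within its own row and block, CLDN4 ranked 2 from the top of 93 probes on the villin-knockdown array and 1 of 92 on the array labelled PTK7 siRNA. CDH1 ranked 3 of 94 (villin) and 32 of 96 (PTK7), EPCAM 3 of 99 (villin) and 1 of 99 (PTK7), and CDH2 18 of 94 (villin) and 25 of 94 (PTK7). CLDN4, CDH1 and EPCAM were thus near the top of their rows on the villin-knockdown array, while CDH2 was not.

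**Figure D4:**
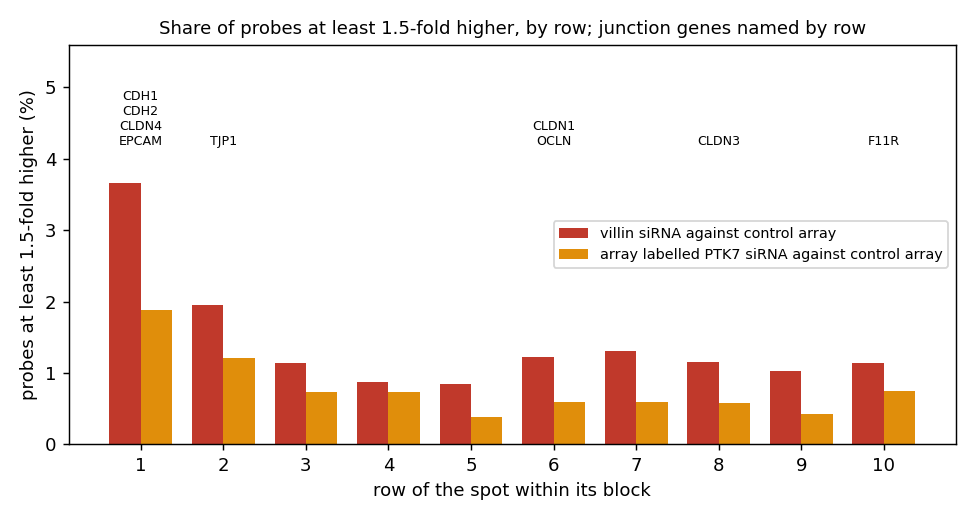
Share of all probes detected on both arrays that were at least 1.5-fold higher than on the control array, by row of the spot within its block, for the villin-knockdown array and the array labelled PTK7 siRNA. Row 1, which holds CDH1, CDH2, CLDN4 and EPCAM, has the highest bars, 3.67% (villin) and 1.88% (PTK7).

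The last comparison sets villin siRNA directly against the array labelled PTK7 siRNA, without the control array. CLDN4 and CDH1 were higher on the villin-knockdown array by 0.48 and 0.47 on the log2 scale, ranks 124 and 125 from the top among 15947 genes, and their surroundings differed little between these arrays, by -0.04 and 0.05. After position scaling the values were 0.51 and 0.43, and with the background column CLDN4 turned to -0.15. EPCAM, F11R, CLDN1 and CLDN3 lay between -0.18 and -0.05, OCLN at 0.00, CDH2 at 0.09 and TJP1 at 0.14. After position scaling the sign turned for EPCAM, from below 0 to 0.00, for CLDN3, to 0.03, and for TJP1, to -0.00. With median scaling CLDN1 and CLDN3 turned to 0.06 and 0.07. The background column turned CLDN3 to 0.78, EPCAM to 0.42, CLDN1 to 0.03 and TJP1 to -0.27. At 1.5-fold 0 of the 9 were higher or lower, against 0.489% and 0.169% of all genes. In the deposited values CDH1 and CLDN4 were at least 1.5-fold higher on the villin-knockdown array, against 5.05% of all genes. The same 2 genes were beyond 1.5-fold with plain subtraction, against 3.18%, and 0 after position scaling, against 0.42%. At 2-fold 0 were higher in either, against 2.52% in the deposited values and 0.784% with plain subtraction.

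Of 100 other junction genes and regulators, in 7 lists, 93 were on the array. On the villin-knockdown array 2 of the 86 detected were at least 1.5-fold higher and 0 lower, with a median of 0.00. The tetraspanin CD9, a membrane protein found in complexes with EpCAM, had deposited intensities of 324 on the villin-knockdown array, with 260 on the array labelled PTK7 siRNA, against 154 on the control array. Its log2 differences were 0.90 (villin) and 0.62 (PTK7), and 0.62 (villin) and 0.43 (PTK7) after position scaling. PERP, a desmosomal membrane protein and p53 target, had 207 with villin siRNA and 151 on the array labelled PTK7 siRNA, against 104 on the control array. Its log2 differences were 0.76 (villin) and 0.40 (PTK7), and 0.73 (villin) and 0.25 (PTK7) after position scaling. On the array labelled PTK7 siRNA 1 of 85 was at least 1.5-fold higher (CD9) and 0 lower. Over all genes the shares at least 1.5-fold higher were 1.59% (villin) and 0.811% (PTK7).

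Of the catenins and other adherens junction partners, all 14 detected lay within 1.5-fold in both comparisons, with medians of 0.04 (villin) and 0.01 (PTK7). VCL, the actin-binding vinculin, was highest at 0.35 (villin) and 0.26 (PTK7), and CTNND1, the p120 catenin that stabilises cadherins at the membrane, lay at -0.22 (villin) and -0.18 (PTK7). NECTIN1, an adhesion molecule of adherens junctions, lay at -0.24 (villin) and -0.28 (PTK7), and at -0.04 (villin) and -0.03 (PTK7) after position scaling. The brighter of 2 probes of NECTIN2 lay at -0.21 (villin) and -0.26 (PTK7), where the other probe was at 0.24 (villin) and 0.09 (PTK7). Position scaling turned the brighter NECTIN2 probe to 0.15 (villin) and 0.18 (PTK7).

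The 8 other cadherins detected had a median of -0.02 in both comparisons, and CDH3, the P-cadherin gene, lay at -0.12 (villin) and -0.14 (PTK7), CDH6 at -0.12 (villin) and -0.17 (PTK7), CDH15 at -0.14 (villin) and 0.05 (PTK7) and CDH16 at 0.08 (villin) and -0.04 (PTK7). The other claudins had medians of -0.07 over 13 genes (villin) and -0.05 over 12 (PTK7). CLDN6, a claudin of embryonic epithelia, lay at 0.25 (villin) and 0.32 (PTK7), CLDN19 at 0.20 (villin) and 0.17 (PTK7), CLDN15 at -0.21 (villin) and -0.16 (PTK7), with its other probe at 0.11 (villin) and 0.16 (PTK7), and CLDN11 at -0.26 (villin) and -0.31 (PTK7). None of them was beyond 1.5-fold. Some dim claudins differed in detection between arrays. CLDN8 was above background only on the control array, at 2, and CLDN20 only with villin siRNA, at 1. CLDN16 was detected with villin siRNA (3) and on the control array (1), and CLDN17 with villin siRNA (2) and on the array labelled PTK7 siRNA (1).

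All 19 other tight junction and polarity genes lay within 1.5-fold, with medians of -0.01 (villin) and 0.05 (PTK7). PARD6B and PARD3, members of the PAR polarity complex, lay at 0.14 (villin) and 0.29 (PTK7) and at 0.09 (villin) and -0.24 (PTK7), the occludin relative MARVELD3 at 0.11 (villin) and 0.27 (PTK7) and the cingulin relative CGNL1 at 0.24 (villin) and 0.09 (PTK7). After position scaling PARD6B lay at 0.06 (villin) and 0.11 (PTK7), and PARD3 at 0.27 (villin) and, with its sign turned, 0.06 (PTK7). Besides PERP, the desmosome and gap junction list held DSG2, a desmosomal cadherin, at 0.28 (villin) and 0.22 (PTK7), DSP, desmoplakin, at 0.04 (villin) and 0.17 (PTK7), and GJB1, the main connexin of hepatocytes, at -0.33 (villin) and 0.11 (PTK7). The medians of the 12 detected were -0.01 (villin) and 0.02 (PTK7). GJA1 and GJB2 were not well above background on the control array and were detected on both siRNA arrays. GJA1 had a deposited intensity of 1 with villin siRNA and 2 on the array labelled PTK7 siRNA, and GJB2 had 4 with villin siRNA and 3 on the array labelled PTK7 siRNA. GJB2 was at least 1.06-fold higher on the villin-knockdown array and at least 1.05-fold higher on the array labelled PTK7 siRNA.

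Among 6 detected relatives and partners of EPCAM the medians were 0.08 (villin) and -0.01 (PTK7). Besides CD9, ST14, the membrane protease matriptase, lay at -0.25 (villin) and -0.31 (PTK7), its inhibitor SPINT1 at 0.31 (villin) and 0.04 (PTK7), and CD44, the hyaluronan receptor, at -0.22 (villin) and -0.33 (PTK7). The transcription and splicing regulators of junction genes had medians of 0.00 (villin) and 0.02 (PTK7) over 14 detected genes, and 0 were beyond 1.5-fold. KLF5 lay at 0.31 (villin) and -0.15 (PTK7), ELF3, an ETS factor of epithelia, at -0.06 (villin) and 0.22 (PTK7), and OVOL1 and OVOL2 at 0.10 (villin) and 0.15 (PTK7) and at 0.02 (villin) and 0.12 (PTK7). SNAI2, the repressor Slug, was not well above background on the villin siRNA and control arrays and had 2 on the array labelled PTK7 siRNA. Of the genes named with a difference from the 7 lists, NECTIN2 and PARD3 were those that changed sign with position scaling.

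**Figure D5:**
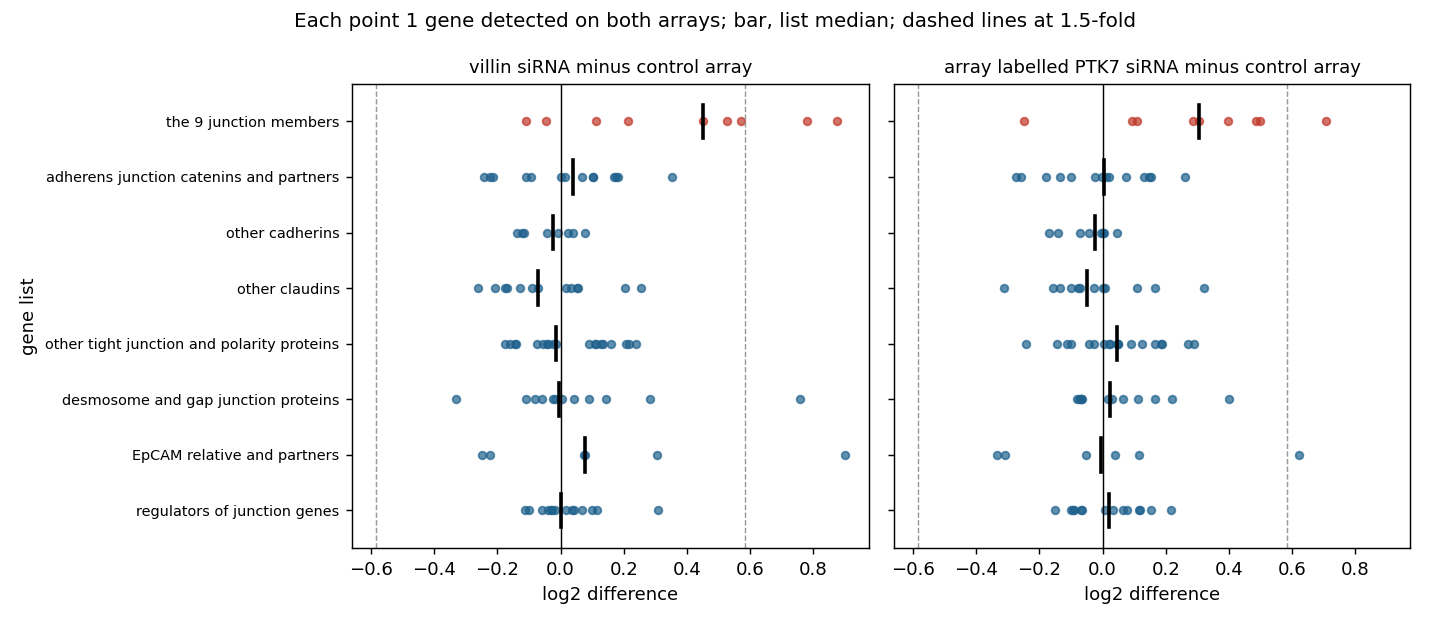
Normalised log2 difference against the control array of the 9 junction genes (red) and of 7 lists of other junction genes and regulators (blue), 1 point per gene detected on both arrays, for the villin-knockdown array (left) and the array labelled PTK7 siRNA (right). Black bars are list medians, 0.45 (villin) and 0.31 (PTK7) for the 9 genes and between -0.07 and 0.08 for the lists, and PERP and CD9 are the blue points beyond 1.5-fold on the left.

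The genes most like 4 of the members over the 3 arrays were found by the distance between their pairs of log2 differences against the control array, among genes above the median level. For CDH1 these were KRT37, OTUB2 and RASD1, at distances of 0.035, 0.040 and 0.051. For CLDN4 they were MXRA8, SQOR and FILIP1L (0.044, 0.046 and 0.073), for CDH2 ATP6V1H, CIAPIN1 and TSPAN1 (0.006, 0.016 and 0.016), and for EPCAM TM9SF2, CTSH and CCDC14 (0.013, 0.026 and 0.040). CDH2 itself lay below that level. Likeness over 3 arrays is a description, and it was not kept by all of them after position scaling. CIAPIN1 then lay at -0.01 (villin) and -0.11 (PTK7) and TSPAN1 at 0.83 (villin) and 0.72 (PTK7), against 0.29 and 0.17 for CDH2. MXRA8 lay at 0.48 (villin) and -0.03 (PTK7), against 0.87 and 0.36 for CLDN4. CCDC14 lay at -0.16 (villin) and -0.09 (PTK7), against 0.28 in both comparisons for EPCAM.

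All 8 hepatocyte markers on the array, among them ALB, AFP, APOA1 and APOB, were detected on every array, and their summed signal above the blank spots, divided by the authors' array factors, was 36558 units on the villin-knockdown array, with 47626 on the array labelled PTK7 siRNA, against 50996 on the control array. ALB lay at -0.56 (villin) and 0.02 (PTK7) and TF, the transferrin gene, at -0.43 (villin) and -0.02 (PTK7), and these genes gave the largest parts of the sum. FGB lay at -0.41 (villin) and 0.05 (PTK7) and AFP at -0.37 (villin) and 0.18 (PTK7), with TTR at 0.24 (villin) and 0.43 (PTK7). The others differed little with villin siRNA. APOA1 lay at 0.04 (villin) and -0.09 (PTK7), APOB at 0 (villin) and 0.08 (PTK7) and SERPINA1 at -0.04 (villin) and 0.23 (PTK7). The median of the 8 was -0.21 (villin) and 0.07 (PTK7), and -0.13 (villin) and 0.16 (PTK7) after position scaling. In RNA of whole cultures, fewer cells of a type and less RNA per cell cannot be told apart.

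Of 4 bile duct markers, all were detected on every array, with summed signals of 8756 units, scaled in the same way, with villin siRNA and 6830.2 on the array labelled PTK7 siRNA, against 5474 on the control array. KRT19, a keratin of bile duct cells, had deposited intensities of 5536 on the villin-knockdown array, with 3101 on the array labelled PTK7 siRNA, against 1573 on the control array, in the same order as CDH1 and CLDN4. Its log2 differences were 1.84 (villin) and 1.01 (PTK7), and 1.35 (villin) and 0.46 (PTK7) after position scaling. Its spot lies in row 1 of block 19. SPP1 had 2057, 2839 and 2768 on these arrays in the same sequence, and SOX9 1099, 835 and 1091. The higher sums on the siRNA arrays thus rest on KRT19, the single bile duct marker beyond 1.5-fold against the control array. KRT7 lay at 0.30 (villin) and 0.20 (PTK7), SOX9 at 0.06 (villin) and -0.33 (PTK7) and SPP1 at -0.33 (villin) and 0.12 (PTK7), the last at -0.01 (villin) and 0.42 (PTK7) after position scaling. The part of these markers in the values of EPCAM, CDH1 and CLDN4 was not tested. Stromal markers summed to 159 units with villin siRNA and 151 on the array labelled PTK7 siRNA, against 108 on the control array. Endothelial markers summed to 51.7 units with villin siRNA and 47.5 on the array labelled PTK7 siRNA, against 55.5 on the control array. Leukocyte markers summed to 387 units with villin siRNA and 311 on the array labelled PTK7 siRNA, against 316 on the control array. Detected on every array were 4 of 6 stromal, 3 of 4 endothelial and 4 of 5 leukocyte markers. COL1A2 was above background on no array, COL1A1 had a deposited intensity of 2 on every array, and PTPRC, the common leukocyte antigen, was above background only on the control array, at 2. Other markers of these lists were brighter. DCN, the largest part of the stromal sum, had 91 with villin siRNA and 85 on the array labelled PTK7 siRNA, against 79 on the control array. CD68, the largest part of the leukocyte sum, had 346, 272 and 281 in the same sequence, and CD14 had 26, 24 and 15. PDGFRB, the stromal marker with the largest difference, had 60 on the villin-knockdown array, with 60 on the array labelled PTK7 siRNA, against 22 on the control array. Its spot lies in row 1 of block 24, like that of CDH2, and it gave most of the difference between the stromal sums. DCN, at 0.08 (villin) and 0.06 (PTK7), turned to -0.22 (villin) and -0.27 (PTK7) after position scaling. The other DCN probe lay at 0.01 (villin) and -0.06 (PTK7) without it.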

How the data were processed

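Cy5-labelled amplified RNA was hybridised to 1-colour arrays, per the labels' protocols. The scanner files hold median intensities of 27456 spots, not background corrected, per the file headers. The authors' deposited table holds whole-number intensities for 24460 probes. They equal the spot median minus the mean of the blank spots, divided by a factor of 1.60, 1.34 and 1.26 for the villin siRNA, PTK7 siRNA and control arrays, within 1 unit for 100% of values. Probes without a value there are those not 2 SDs above the blank mean or carrying a scanner flag, and the same rule defined detection here, giving 22525, 22064 and 22090 probes.

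From the scanner intensities, normexp correction on the blank mean (5% trimmed at each end) with an offset of 50 and quantile normalisation gave log2 values (limma 3.58.1, R 4.3.3). For position scaling, the deviation of an array from the mean of the 3 arrays was taken as a median over 11 columns by 5 rows around a spot, and divided out before normexp. The brightest probe stood for a gene. Calls are 1.5-fold on both-detected genes. Symbols were updated through RefSeq (GRCh38.p14), 2899 of 20236 probes by a unique synonym. No genome build is given in the sources used here for the array. Tables and figures were made with matplotlib 3.10.9, pandas 2.3.3 and numpy 2.4.6 under Python 3.11.15. The procedure was tested on simulated arrays. These had no position effect and a constant background, so position scaling and the background column were not tested by them. The number of arrays, 1 per group, limits the precision.

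The members, lists and alternatives were chosen with earlier results of these data known. Named genes were all members, VIL1 and PTK7, up to 4 genes per list with the largest difference against the control array, and the 3 genes most like CDH1, CDH2, CLDN4 and EPCAM. Marker genes, SNAI2, GJA1, GJB2, CLDN8, CLDN16, CLDN17 and CLDN20 were added after their values were seen.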

Additional observations from a re-analysis of the deposited data

How the results depend on the processing

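No paired analysis was possible because each group has 1 array, and leaving out an array leaves nothing to compare. Of 9 genes in 10 alternatives each, 81 of 90 differences on the villin-knockdown array, 86 of 90 on the array labelled PTK7 siRNA and 77 of 90 between the siRNA arrays kept their sign. The sign of a gene beyond 1.5-fold was lost only with the background column, for CLDN4 on the villin-knockdown array (-0.14) and EPCAM on the array labelled PTK7 siRNA (-0.23). In the quantile-normalised values 2 members were at least 1.5-fold apart on the villin-knockdown array, 1 on the array labelled PTK7 siRNA and 0 between them. Of all genes detected on both arrays, 336, 162 and 105 were. On the villin-knockdown array the count of members became 5 with median scaling (485 of all genes) and 1 with position scaling (189). It became 3 with position scaling and plain subtraction (1294), and 0 at 2-fold. With the background column it stayed at 2 (1122), but these were CDH1 (0.67) and F11R (0.98), not CLDN4. On the array labelled PTK7 siRNA the count of members became 4 with the deposited values (1976 of all genes) and 3 with plain subtraction (2011). With the background column it was 2 (1356), in opposite directions, F11R at 1.20 and CLDN3 at -0.83, without EPCAM. It became 0 with position scaling (27), position scaling with plain subtraction (852), the mean of probes or 2-fold. Between the siRNA arrays the count of members became 2 in the deposited values (1090 of all genes) and 2 after plain subtraction (966). It became 2 with the background column (1175), CDH1 at 0.60 and CLDN3 at 0.78, and 1 with position scaling and plain subtraction (844). With the background column the median became 0.13 with villin siRNA and 0.04 on the array labelled PTK7 siRNA. VIL1 (-2.50) lay at -2.84 in the deposited values, -2.82 with plain subtraction, -1.09 with the background column and -2.21 with position scaling, and PTK7 at -0.67 with position scaling and plain subtraction. The cause of these changes was not tested.

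Median scaling raised the share of higher genes among all called ones, from the quantile values' 75.3% to 95.7% on the villin-knockdown array, from 79.0% to 89.1% on the array labelled PTK7 siRNA and from 74.3% to 89.0% between them. Position scaling left 63.0% on the array labelled PTK7 siRNA, over 27 called genes against 162, and the deposited values 48.5%. Normalising the 2 compared arrays alone, added after seeing the data, changed no count of members. Dim probes such as CDH2 are limited by the offset.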
